A study of Saccharomyces cerevisiae with 16 samples.

Results

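Ribosome footprints of sporulating yeast lacking DBP1 were set against those of wild type (WT) at 6 h in sporulation medium, gene by gene. The comparison covers the 4974 genes, of 6679 in the deposited table, with a mean of at least 5 RPKM (reads scaled by gene length and library depth) over the 4 footprint libraries of that time. Of these genes 4878 reached the minimum in both strains, 36 in WT alone and 60 in the deletion alone. The genes just inside it were BUD8 (5.01 RPKM) and LIN1 (5.01 RPKM), and just outside it MTC2 stood at 4.99 RPKM. Of the 1705 genes not kept, 725 had no footprint read at 6 h.

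Translation in yeast usually starts when a small ribosomal subunit lands at the capped end of an mRNA and scans to the start codon, and RNA helicases of the DEAD-box family unwind structure on the way. DBP1 encodes such a helicase and is the paralogue of DED1, which is needed for initiation on many mRNAs and is essential, whereas DBP1 is not. During sporulation a diploid cell passes through meiosis and builds spores, in waves of early, middle and late genes. The number of footprints on a gene reflects both the amount of its mRNA and how many ribosomes each mRNA carries, so mRNA libraries that carry the same sample numbers are given beside the footprints.

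All cells were of the SK1 background, a strain that sporulates fast and synchronously. The WT (strain 24955) carried the DBP1 reading frame, and the deletion (strain 24950) had it removed with Cas9 without leaving a marker, so each genotype is represented by 1 strain. Both were treated with 100 µM cycloheximide, which arrests elongating ribosomes, for 1 min before harvest. Each group held 2 libraries, WT replicates 3 and 4 and deletion replicates 2 and 4, for footprints and for mRNA alike. The labels do not say that replicates came from separate cultures, and a p-value here reflects the spread between libraries alone, which may be technical. The footprint libraries of 6 h held 4619166 to 5789180 reads on genes and the mRNA libraries 7931682 to 9144928. A kept gene had a median of 892 footprint reads over the 4 libraries.

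The cultures were checked against markers of sporulating, dividing and haploid cells. Footprints of the 43 middle meiotic genes were higher at 6 h than at 3 h in WT by a median of 6.61 on the log2 scale. Of 17 markers of dividing cells, 15 were under 5 RPKM, and their summed level was 49.9 to 58.4 RPKM per library. Of 19 markers of haploid cells, 9 were under 5 RPKM and 2 had no reads, with a summed level of 1725 to 2010 RPKM. The share of unsporulated cells in each culture was not measured.

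DBP1 footprints were 164 RPKM and 147 RPKM in WT replicates 3 and 4. In deletion replicates 2 and 4 they were 0.578 RPKM (6 reads) and 0.449 RPKM (4 reads). Both deletion libraries were near 0 and far below both WT libraries. The log2 change was -6.69 (SE 0.15, limma adjusted p = 3.05e-07). DBP1 mRNA was 32.3 RPKM and 40.7 RPKM in WT and 1.22 RPKM (20 reads) and 0.409 RPKM (6 reads) in the deletion. The remaining reads are too few to say anything about how DBP1 was translated there.

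Only 1 other gene passed the threshold, the short open reading frame YPL119C-A, which follows DBP1 on its 3′ side, in the same orientation, and has no known function. It held 0.94 RPKM (1 read) and 2.15 RPKM (2 reads) in WT, and 33.5 RPKM (39 reads) and 29.0 RPKM (29 reads) in the deletion. The groups were well apart, with all WT values resting on a few reads. Over the pooled reads, footprints were 20.9-fold higher in the deletion (95% exact binomial interval 6.85 to 104, counting error only). On the log2(RPKM + 1) scale the change was 3.70 (SE 0.30, adjusted p = 0.00476). At 3 h YPL119C-A footprints were 0 RPKM and 0 RPKM in WT, and 45.0 RPKM and 28.3 RPKM in deletion replicates 2 and 4.

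YPL119C-A mRNA was 59.6 RPKM and 60.7 RPKM in WT and 160 RPKM and 159 RPKM in the deletion. The deletion libraries almost coincided, both above WT, with a log2 change of 1.40 (SE 0.13, adjusted p = 0.0319). The footprint change less the mRNA change was 2.31 (SE 0.31) and did not pass (adjusted p = 0.335). It passed with the sample as a replicate block over footprint and mRNA libraries (adjusted p = 0.0491). The table does not show whether reads of YPL119C-A come from its own transcript or from a remnant of the edited locus, and this was not tested. Its footprint call was lost without deletion replicate 2 (adjusted p = 0.163), without deletion replicate 4 (adjusted p = 0.0919), with no filter (adjusted p = 0.0938) and with limma-voom, fitted to whole reads (adjusted p = 0.117). Its mRNA call was lost without WT replicate 3 (adjusted p = 0.342) or WT replicate 4 (adjusted p = 0.201).

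The flanking genes with known products did not pass. MRP51, for a mitochondrial ribosomal protein, had footprints of 109 RPKM and 111 RPKM in WT and 75.3 RPKM and 105 RPKM in the deletion. Only deletion replicate 2 stood clearly below WT, with a log2 change of -0.30 (SE 0.19, adjusted p = 0.999) that was -0.06 without it and -0.54 without deletion replicate 4. VPS30, for a lipid kinase subunit that serves autophagy and vacuolar sorting, had 24.3 RPKM and 22.7 RPKM in WT and 21.6 RPKM and 19.3 RPKM in the deletion. These values lay close together, with a log2 change of -0.19 (SE 0.15). It was -0.27 without deletion replicate 2 and -0.11 without deletion replicate 4.

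Over all 4974 genes, limma called DBP1 lower and YPL119C-A higher, 0.0402% of genes tested (0.0201% in each direction). At an unadjusted p under 0.05 there were 123 genes, and limma-voom called DBP1 alone, with 73 genes at an unadjusted p under 0.05. The median 95% interval of a gene's change reached 0.42 to each side on the log2 scale. For 92.0% of genes the interval lay within 1 of no change. Without deletion replicate 4 the 2 genes called were DBP1 and CUZ1, described below, and 978 genes had an unadjusted p under 0.05.

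For DED1, the paralogue, footprints were 103 RPKM and 96.0 RPKM in WT replicates 3 and 4, 165 RPKM in deletion replicate 2 and 107 RPKM in deletion replicate 4. Deletion replicate 2 stood high, while deletion replicate 4 lay just above the higher WT library. The log2 change of 0.42 (SE 0.20, unadjusted p = 0.0674, adjusted p = 0.999) did not pass, and it was 0.11 without deletion replicate 2 and 0.73 without deletion replicate 4. DED1 mRNA was level, at 17.0 RPKM and 19.4 RPKM in WT and 17.7 RPKM and 17.0 RPKM in the deletion.

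**Figure D1:**
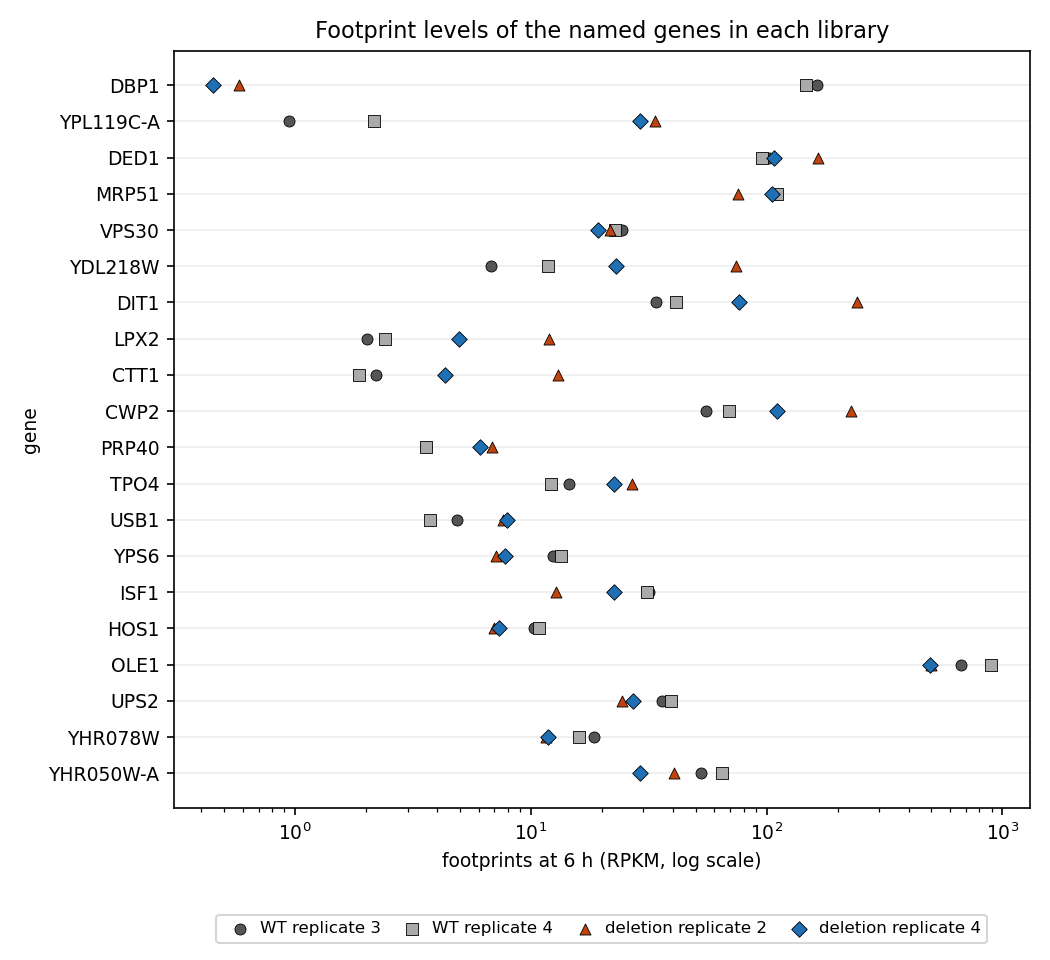
Footprint level at 6 h (RPKM, log axis) of DBP1, its neighbours, its paralogue DED1 and the genes with the widest gaps between the strains; each point is 1 library. DBP1 and YPL119C-A are the genes past the threshold, and in YDL218W, DIT1, LPX2, CTT1 and CWP2 deletion replicate 2 lies far above deletion replicate 4.

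The deletion libraries resembled each other less than either resembled WT. Across genes, the SD of the log2 difference between the 2 deletion libraries was 0.460, against 0.249 between the 2 WT libraries. Deletion replicate 4 lay nearly as close to WT as the WT libraries to each other, with an SD of 0.284 against WT replicate 3 and 0.302 against WT replicate 4. Deletion replicate 2 stood apart from all others, with an SD of 0.429 and 0.413 against WT. In 144 genes the deletion libraries differed by more than 1 on the log2 scale, against 27 genes for the WT libraries.

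Deletion replicate 2 was the deepest of the 4 footprint libraries, and its wider spread was also seen in highly expressed genes. Among 1349 genes above 100 RPKM in WT, the SD was 0.401 between the deletion libraries and 0.150 between the WT libraries. The mRNA libraries showed the same order of size, with an SD of 0.369 between the deletion libraries and 0.224 between the WT libraries across 4860 genes.

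**Figure D2:**
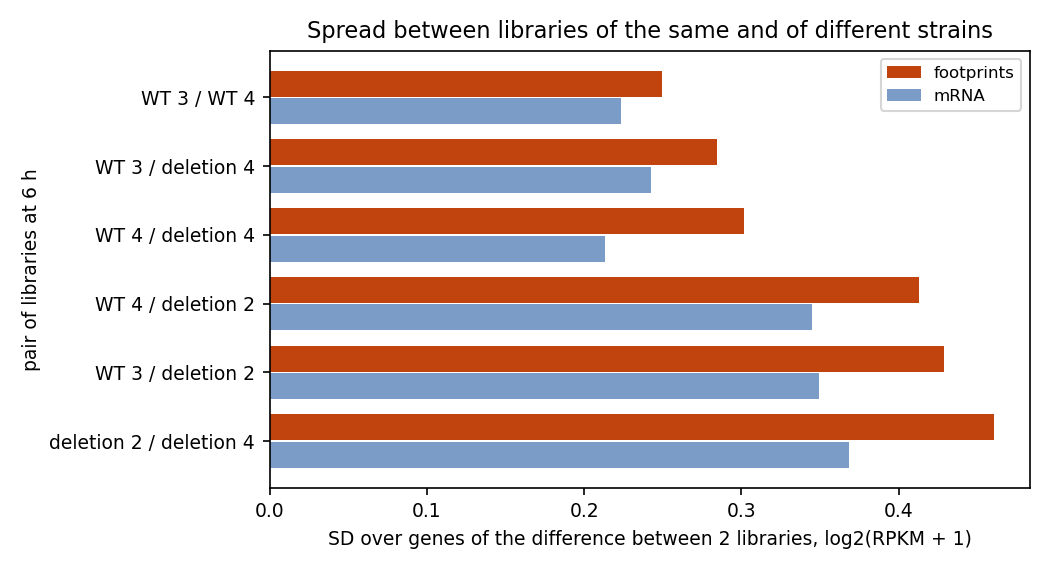
SD over genes of the difference in log2(RPKM + 1) between each pair of 6 h libraries, for footprints (4974 genes) and mRNA (4860 genes). The pair of deletion libraries differs most in both, and the pairs with deletion replicate 2 come next.

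When each deletion library was set against a different WT library, their strain differences did not run together. The difference of deletion replicate 2 from WT replicate 3 and that of deletion replicate 4 from WT replicate 4 had a Pearson correlation of -0.0873 and a Spearman correlation of -0.267 across 4974 genes. Genes are not independent replicates, and each value shares the depth of its library. Without DBP1 and YPL119C-A these were -0.196 and -0.268 over 4972 genes. With the WT libraries exchanged they were 0.00283 and -0.247 with all genes, and -0.109 and -0.248 without those genes. Leaving out DBP1 and YPL119C-A thus lowered the Pearson value under either pairing.

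Both deletion libraries lay on the same side of both WT libraries in 1233 genes (24.8%), of which 456 (9.17%) were above and 777 (15.6%) below. They lay on opposite sides of WT in 1829 genes (36.8%), and the other 1912 genes overlapped in another way. The gap between the groups was over 0.5 on the log2 scale in 12 genes above WT and 9 below, and over 1 in 1 gene above and 3 below. Taken alone, deletion replicate 2 lay more than 1 above the WT mean in 53 genes and more than 1 below it in 41. The same counts for deletion replicate 4 were 9 and 18.

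**Figure D3:**
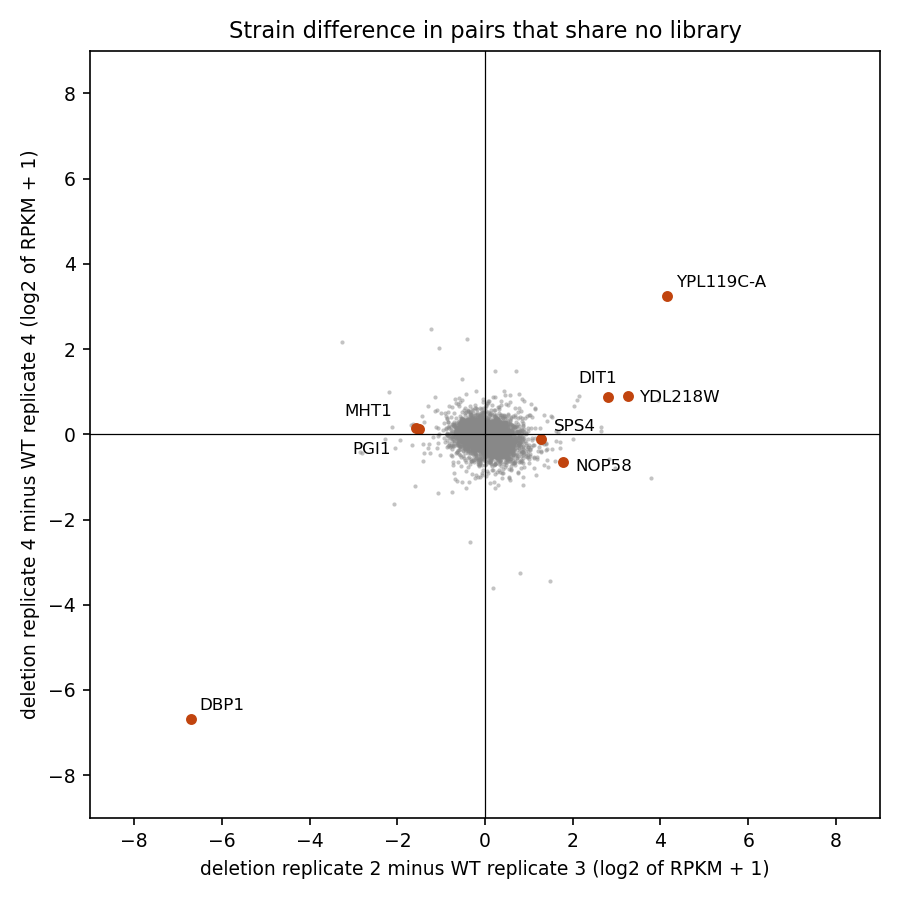
Each point is 1 of 4974 genes, with the log2 difference of deletion replicate 2 from WT replicate 3 on the horizontal axis and of deletion replicate 4 from WT replicate 4 on the vertical axis. DBP1 and YPL119C-A lie far out in matching directions, and the rest of the cloud shows no upward slope (Pearson -0.196 without them).

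Genes with at least 100 footprint reads were ranked by the gap between the strains. None but DBP1 passed the threshold in either direction (adjusted p = 0.999 for each gene named in the next 3 paragraphs). Those with the widest gap above WT are described first. Because they were chosen by this gap, their footprint values are a description. DIT1, for an enzyme that makes the dityrosine precursor of the spore wall, had 34.1 RPKM and 41.5 RPKM in WT, 243 RPKM in deletion replicate 2 and 76.5 RPKM in deletion replicate 4. Both deletion libraries were above WT, but they were further from each other than deletion replicate 4 was from WT. In DIT1 mRNA both deletion libraries were again above WT, at 284 RPKM in deletion replicate 2 and 71.1 RPKM in deletion replicate 4. The WT libraries had the reverse order in mRNA, at 58.8 RPKM in WT replicate 3 and 37.2 RPKM in WT replicate 4. A similar picture held for YDL218W, a gene of unknown function, with footprints of 6.76 RPKM and 11.9 RPKM in WT and 73.8 RPKM and 23.0 RPKM in the deletion. CWP2, for a cell wall mannoprotein, had 55.2 RPKM and 69.2 RPKM in WT and 228 RPKM and 110 RPKM in the deletion. In these 3 genes deletion replicate 2 carried most of the difference, and without it the log2 changes of DIT1, YDL218W and CWP2 went from 1.83, 2.08 and 1.35 to 1.01, 1.26 and 0.82. In bulk cultures, a change in the number of cells of a kind and in the RNA per cell cannot be told apart.

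CTT1, for the cytosolic catalase that breaks down hydrogen peroxide, had 2.20 RPKM and 1.86 RPKM in WT and 13.0 RPKM and 4.32 RPKM in the deletion. LPX2 had 2.02 RPKM and 2.40 RPKM in WT and 11.9 RPKM and 4.98 RPKM in the deletion. Both were low genes, and again deletion replicate 2 was the higher of the pair, the log2 changes of CTT1 and LPX2 going from 1.51 and 1.46 to 0.81 and 0.90 without it. Their mRNA moved less, CTT1 being at 24.8 RPKM and 26.3 RPKM in WT and 30.5 RPKM and 29.6 RPKM in the deletion, and LPX2 at 10.3 RPKM and 10.1 RPKM in WT and 13.9 RPKM and 11.9 RPKM in the deletion. In PRP40 (a component of the splicing machinery), TPO4 (a polyamine transporter) and USB1 (an enzyme that trims a spliceosomal RNA) the deletion libraries were close to each other. PRP40 had 3.57 RPKM and 3.58 RPKM in WT and 6.84 RPKM and 6.06 RPKM in the deletion. TPO4 had 14.5 RPKM and 12.2 RPKM in WT and 26.7 RPKM and 22.5 RPKM in the deletion. USB1 rested on 14 to 36 reads per library.

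Below WT, the gap after that of DBP1 was widest in YPS6, for a protease anchored at the cell surface. It had 12.4 RPKM and 13.4 RPKM in WT and 7.11 RPKM and 7.77 RPKM in the deletion, a log2 change of -0.72 (SE 0.22). Its mRNA had a like difference, at 20.7 RPKM and 19.2 RPKM in WT and 11.4 RPKM and 12.7 RPKM in the deletion. OLE1, for the fatty acid desaturase, had 669 RPKM and 894 RPKM in WT and 496 RPKM and 493 RPKM in the deletion. The deletion libraries nearly coincided while the WT libraries differed. OLE1 mRNA did likewise, with the WT libraries in the reverse order, at 270 RPKM and 192 RPKM in WT and 151 RPKM and 147 RPKM in the deletion. HOS1, for a histone deacetylase family member, had 10.3 RPKM and 10.8 RPKM in WT and 6.94 RPKM and 7.33 RPKM in the deletion. Its mRNA overlapped, at 10.9 RPKM and 12.6 RPKM in WT and 11.1 RPKM and 11.5 RPKM in the deletion. UPS2, for a mitochondrial lipid transfer protein, had 36.1 RPKM and 39.3 RPKM in WT and 24.3 RPKM and 27.0 RPKM in the deletion. ISF1 had 31.8 RPKM and 31.0 RPKM in WT and 12.8 RPKM and 22.5 RPKM in the deletion, and its log2 change of -0.85 became -0.46 without deletion replicate 2. In ISF1 deletion replicate 2 was the lower of the pair. YHR078W and YHR050W-A had log2 changes of -0.52 and -0.75, and YHR050W-A rested on 16 to 33 reads per library.

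At the other extreme were genes in which the deletion libraries lay on opposite sides of WT. NOP58, for a core protein of the particles that guide ribosomal RNA modification, had 4.09 RPKM and 6.60 RPKM in WT, 16.4 RPKM in deletion replicate 2 and 3.82 RPKM in deletion replicate 4. ALB1, for a factor of large-subunit assembly, had 10.1 RPKM and 13.0 RPKM in WT, 19.2 RPKM in deletion replicate 2 and 5.16 RPKM (12 reads) in deletion replicate 4. ICS2 had 9.60 RPKM and 6.73 RPKM in WT, 24.4 RPKM in deletion replicate 2 and 5.68 RPKM (20 reads) in deletion replicate 4. AI3 had 19.7 RPKM and 26.6 RPKM in WT, 54.5 RPKM in deletion replicate 2 and 17.3 RPKM in deletion replicate 4. In each of these genes, and in YGL230C described below, the WT libraries sat between the deletion libraries.

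The reverse order was found in PGI1 and GPM1, which encode enzymes of glycolysis. PGI1 had 21.5 RPKM and 21.6 RPKM in WT, 6.89 RPKM in deletion replicate 2 and 23.6 RPKM in deletion replicate 4. GPM1 had 51.9 RPKM and 50.3 RPKM in WT, 23.2 RPKM in deletion replicate 2 and 57.1 RPKM in deletion replicate 4. In PGI1 and GPM1 only deletion replicate 2 departed from WT by much. MRH1 had 19.0 RPKM and 13.2 RPKM in WT, 8.03 RPKM in deletion replicate 2 and 25.2 RPKM in deletion replicate 4. MHT1, for an enzyme of sulfur amino acid metabolism, and TIS11, for a protein that promotes decay of mRNAs when iron is scarce, had the same order, with 19.3 RPKM and 49.6 RPKM in deletion replicate 2 against 59.7 to 63.6 RPKM and 139 to 140 RPKM in WT.

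The difference between the deletion libraries was largely shared by their mRNA. Deletion replicate 2 minus deletion replicate 4 in footprints correlated with the same difference in mRNA at 0.690 (Pearson; Spearman 0.714) across 4860 genes, whereas WT replicate 3 minus WT replicate 4 gave -0.195. Across the same genes the SD of the difference between the deletion libraries was 0.458 in footprints, and it was 0.335 once the mRNA difference was taken away. For the WT libraries the SD was 0.245 in footprints and rose to 0.362 once mRNA was taken away, as their footprint and mRNA differences were negatively correlated. The WT value is therefore no baseline for how far libraries differ per mRNA.

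Gene lists were described by the side of WT on which their members lay in each deletion library, with no test of a list. None had a called member other than the neighbour YPL119C-A. Early meiotic genes, which serve recombination and chromosome pairing, lay above both WT libraries in deletion replicate 2 for 31 of 34 genes (91.2%, against 39.3% of all genes). In deletion replicate 4 they lay below both WT libraries for 30 of 34 (88.2%, against 42.9%). Their median difference from the WT mean was 0.39 and -0.23 in footprints, beside 0.39 and -0.21 in mRNA. In mRNA 27 of 34 lay above both WT libraries in deletion replicate 2 (79.4%, against 46.6% of all genes) and 27 below both in deletion replicate 4 (79.4%, against 43.1%). MER1, a splicing factor of meiotic transcripts, had 62.5 RPKM and 52.6 RPKM in WT, 86.5 RPKM in deletion replicate 2 and 55.6 RPKM in deletion replicate 4. IME2, a kinase that promotes meiosis, was below WT in both, at 1739 RPKM and 1623 RPKM against 1830 RPKM and 1831 RPKM.

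Proteasome genes divided the same way, with 28 of 34 above both WT libraries in deletion replicate 2 (82.4%, against 39.3% of all genes) and 31 of 34 below both in deletion replicate 4 (91.2%, against 42.9%). Their medians were 0.23 and -0.21 in footprints and 0.23 and -0.25 in mRNA. Of 75 ribosome biogenesis genes 50 were tested, and 40 of these lay above both WT libraries in deletion replicate 2 (against 39.3% of all genes) while 31 lay below both in deletion replicate 4 (62.0%, against 42.9%). In mRNA, of 41 tested, 34 lay above both WT libraries in deletion replicate 2 (82.9%, against 46.6% of all genes). In deletion replicate 4 there were 15 above (36.6%, against 24.1%) and 14 below (34.1%, against 43.1%), so the excess below WT was in footprints only. Medians were 0.43 and -0.22 in footprints and 0.49 and -0.02 in mRNA. The members NOP53 (log2 change 0.84, SE 0.28) and NOP19 (-0.36, SE 0.14), which were of smallest p, had the deletion libraries on 1 side of WT but did not pass.

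Middle meiotic genes, which carry out the divisions and begin spore formation, showed the opposite arrangement. In deletion replicate 2, 33 of 43 lay below both WT libraries (76.7%, against 43.4% of all genes), and in deletion replicate 4, 22 lay above both (51.2%, against 28.5%). The median differences were -0.26 and 0.04 in footprints and -0.19 and 0.02 in mRNA. In mRNA 38 of 43 lay below both WT libraries in deletion replicate 2 (88.4%, against 34.2% of all genes) and 13 above both in deletion replicate 4 (30.2%, against 24.1%). OSW2, for a spore wall protein, had 689 RPKM and 715 RPKM in WT, 511 RPKM in deletion replicate 2 and 689 RPKM in deletion replicate 4. Against this arrangement, SPS4, SPR6 and AMA1 lay above both WT libraries in deletion replicate 2. The summed footprint level of the list was highest there, at 110799 RPKM, against 104450 RPKM and 107518 RPKM in WT and 107972 RPKM in deletion replicate 4. That excess rested on SPS4, at 24202 RPKM in deletion replicate 2, against 9923 RPKM and 11885 RPKM in WT and 10956 RPKM in deletion replicate 4. SPS4 differed by more than the sums did, so the sum does not describe the other members. Of 74 mitochondrial ribosomal protein genes, 60 lay below both WT libraries in deletion replicate 2 (81.1%, against 43.4% of all genes). In deletion replicate 4, 25 lay below both (33.8%, against 42.9%) and 26 above both (35.1%, against 28.5%). In mRNA 49 lay below both WT libraries in deletion replicate 2 (66.2%, against 34.2% of all genes). In deletion replicate 4, 30 did so in mRNA (40.5%, against 43.1%). The median differences were -0.30 and 0.00 in footprints and -0.18 and -0.01 in mRNA. In footprints both deletion libraries were below WT in 21 of the 74 (28.4%, against 15.6% of all genes). MRP21 had 32.7 RPKM and 26.9 RPKM in WT and 16.8 RPKM and 23.8 RPKM in the deletion. Enzymes of the citric acid and glyoxylate cycles had medians of -0.32 and -0.03 over 20 genes.

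**Figure D4:**
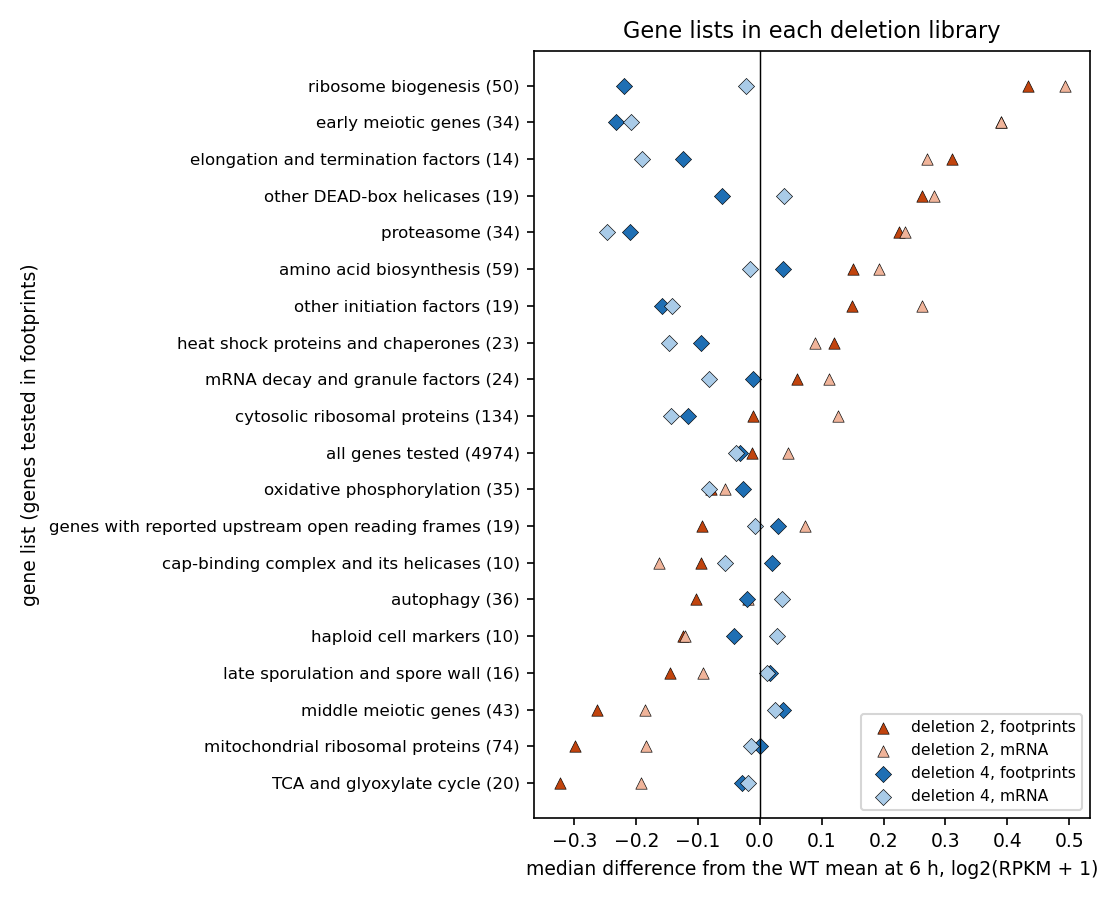
Median difference from the WT mean at 6 h on the log2(RPKM + 1) scale, for each gene list with at least 10 tested genes, in deletion replicate 2 and deletion replicate 4, for footprints and mRNA. Early meiotic, proteasome and ribosome biogenesis genes are above 0 in deletion replicate 2 and below 0 in deletion replicate 4, and footprint and mRNA markers of a library mostly lie near each other.

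The arrangement of early and middle genes was compared with the time course of WT. Early meiotic and ribosome biogenesis genes were lower at 6 h than at 3 h in WT footprints, by medians of -1.76 and -1.24 on the log2 scale, and middle meiotic genes were higher. Deletion replicate 2 minus deletion replicate 4 correlated with the change from 3 h to 6 h in WT at -0.363 (Pearson; Spearman -0.545) across 4974 genes, values that share no library. Genes lower at 6 h than at 3 h in WT thus tended to be higher in deletion replicate 2 than in deletion replicate 4. Other lists did not follow. Citric acid and glyoxylate cycle genes were also lower at 6 h than at 3 h in WT, by a median of -1.41, and yet lay below WT in deletion replicate 2 (-0.32) more than in deletion replicate 4 (-0.03). Mitochondrial ribosomal protein genes had a WT change of -0.55, beside -0.30 and 0.00, and oxidative phosphorylation genes one of -2.16, beside -0.08 and -0.03. These medians share the WT libraries of 6 h with the time course. Late sporulation genes, higher at 6 h in WT by a median of 5.57, lay below both WT libraries in deletion replicate 2 for 11 of 16 (68.8%, against 43.4% of all genes). Above both were 5 (31.2%, against 39.3%). The list's medians, which share those WT libraries too, were -0.15 in deletion replicate 2 and 0.02 in deletion replicate 4. DIT1 and DIT2, which serve the dityrosine layer, went the other way and were highest in deletion replicate 2. DIT2 had 31.6 RPKM and 32.2 RPKM in WT, 85.5 RPKM in deletion replicate 2 and 40.2 RPKM in deletion replicate 4. How far each culture had advanced was not measured separately, so its part in these differences was not tested.

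Factors of translation itself were counted in 3 lists. Of 10 genes of the cap-binding complex and its helicases, both deletion libraries were above WT in 2 and below in 1. Of 19 other initiation factors there were 3 and 2, and of 14 elongation and termination factors 0 and 0. Over all genes the shares were 9.17% above and 15.6% below. Deletion replicate 2 lay above and deletion replicate 4 below both WT libraries in 1, 6 and 7 genes of these lists (20.7% of all genes). The reverse order held for 1 gene in each list (16.1% of all genes). CAF20, for a protein that binds the cap-binding factor, had 30.1 RPKM and 23.4 RPKM in WT, 58.0 RPKM in deletion replicate 2 and 30.7 RPKM in deletion replicate 4. SUI1, for the factor that helps select the start codon, had 391 RPKM and 362 RPKM in WT and 514 RPKM and 448 RPKM in the deletion. Neither passed, with log2 changes of 0.65 (SE 0.28) and 0.35 (SE 0.17). Of 22 other DEAD-box helicases 19 were tested, 3 above and 2 below, and of 24 mRNA decay and granule factors 3 lay on each side.

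Cytosolic ribosomal protein genes had 11 of 134 above (8.21%, against 9.17% of all genes) and 27 below (20.1%, against 15.6%), shares near those of all genes. The members described next were named for their small unadjusted p. RPS9A had 8.49 RPKM and 8.11 RPKM in WT and 4.85 RPKM and 3.39 RPKM in the deletion (log2 change -0.88, SE 0.23). RPP2B, for a protein of the ribosomal stalk, had 13.1 RPKM and 19.0 RPKM in WT and 9.49 RPKM and 7.37 RPKM in the deletion (log2 change -0.85, SE 0.26). Both were low in the deletion without passing, and they rested on few reads per library, 9 to 24 for RPS9A and 10 to 24 for RPP2B. Copies of ribosomal protein genes that are near-identical, such as RPS9A and RPS9B, may share reads. Of 59 amino acid biosynthesis genes tested, 13 were above (22.0%, against 9.17% of all genes) and 3 below (5.08%, against 15.6%). ARO4, for the first enzyme of aromatic amino acid synthesis, had 37.3 RPKM and 30.4 RPKM in WT and 54.0 RPKM and 42.4 RPKM in the deletion. ARO4 mRNA was 19.3 RPKM and 23.6 RPKM in WT and 46.4 RPKM and 25.8 RPKM in the deletion. The list's median change was 0.05, beside -0.04 for all genes.

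Genes with upstream open reading frames, which can hold back translation of the main frame, were examined as a list of 25 genes, of which 19 were tested. Both deletion libraries were above WT in 2 (10.5%, against 9.17% of all genes) and below in 3 (15.8%, against 15.6%), close to the background shares. INO2, a regulator of phospholipid synthesis, had 5.30 RPKM and 4.56 RPKM in WT and 10.1 RPKM and 7.06 RPKM in the deletion (log2 change 0.68, SE 0.20). HOL1, for a transporter, had 49.3 RPKM and 50.1 RPKM in WT and 32.5 RPKM and 38.7 RPKM in the deletion (log2 change -0.48, SE 0.17). HOL1 mRNA was close in all libraries, at 125 to 132 RPKM. Neither passed over all genes tested. Of the remaining lists, autophagy had 2 of 36 above (5.56%) and 8 below (22.2%), and oxidative phosphorylation 2 of 35 (5.71%) and 6 (17.1%). Heat shock proteins had 1 of 23 on each side (4.35%) and late sporulation 2 of 16 on each side (12.5%). In 12 of the 23 heat shock proteins deletion replicate 2 lay above and deletion replicate 4 below both WT libraries (20.7% of all genes). The reverse order held for 0 of them (16.1% of all genes). Over all genes the shares were 9.17% above and 15.6% below.

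Footprint differences were next read beside mRNA. At 6 h limma called DBP1 and YPL119C-A in mRNA, 0.0412% of 4860 genes (0.0206% in each direction), with 64 at an unadjusted p under 0.05. Without deletion replicate 4 it called 103 genes, 80 higher and 23 lower. That fit sets deletion replicate 2 alone against WT, takes the spread from the 2 WT libraries and assumes that the lone library varies like them. Without WT replicate 3 it called DBP1 alone. The footprint and mRNA changes correlated at 0.523 across genes (Pearson), with DBP1 and YPL119C-A included. Of 444 genes with both deletion libraries above WT in footprints, 116 (26.1%) were also above in mRNA and 16 (3.60%) below, against 10.4% and 12.9% of all genes. Of 768 genes below in footprints, 194 (25.3%) were also below in mRNA and 56 (7.29%) above. Footprint and mRNA libraries carry the same sample numbers and can share a deviation of 1 sample. The overlap is therefore no separate measure of the strain difference.

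No gene passed for footprints per mRNA, 0% of 4860 genes, with 36 at an unadjusted p under 0.05. With a replicate block, which ties the footprint and mRNA libraries of the same sample number, limma called COX17, DBP1 and YPL119C-A. With a pseudocount of 5 RPKM the fit called DBP1. Without deletion replicate 2 it called YMR158C-A, and without deletion replicate 4 it called CUZ1 and YNL146C-A. Nor did any gene pass for a difference of the footprint effect between 6 h and 3 h, 0% of 4974 genes, with 72 at an unadjusted p under 0.05.

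Some genes did part in footprints between the deletion libraries without a like change in mRNA, and they were ranked after the values were seen. Among 3579 genes with at least 400 reads of each kind, the difference between deletion replicates 2 and 4 was over 1 larger in footprints than in mRNA in 10 genes, and over 1 smaller in 7. The same counts between the WT libraries were 8 and 6, where taking mRNA away again widened the spread (SD 0.173 to 0.279). These are single libraries and were not tested.

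Abundant sporulation transcripts were among those at the top. SPS4, a sporulation gene of unknown role, had footprints of 9923 RPKM and 11885 RPKM in WT, 24202 RPKM in deletion replicate 2 and 10956 RPKM in deletion replicate 4. Its mRNA was level at 57823 RPKM and 55005 RPKM in WT and 57928 RPKM and 58598 RPKM in the deletion. SPR6, likewise a sporulation gene, had footprints of 425 RPKM and 493 RPKM in WT, 1015 RPKM in deletion replicate 2 and 436 RPKM in deletion replicate 4, with mRNA between 7476 RPKM and 7839 RPKM. In both genes deletion replicate 2 alone was high.

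YGL230C, an uncharacterised gene, had 536 RPKM and 633 RPKM in WT, 1534 RPKM in deletion replicate 2 and 502 RPKM in deletion replicate 4, and its mRNA lay between 3541 RPKM and 4072 RPKM. CUZ1, for a zinc finger protein that binds the proteasome, had 254 RPKM and 266 RPKM in WT, 609 RPKM in deletion replicate 2 and 257 RPKM in deletion replicate 4. CUZ1 mRNA was between 2770 RPKM and 3056 RPKM. At 3 h the CUZ1 footprints of the same strains lay between 191 RPKM and 216 RPKM, and no library stood out. VPS21, for a small GTPase of endosomes, had 177 RPKM and 189 RPKM in WT, 326 RPKM in deletion replicate 2 and 154 RPKM in deletion replicate 4, with mRNA between 1118 RPKM and 1174 RPKM. AMA1, for an activator of the meiotic anaphase-promoting complex named from the middle meiotic list, had 1015 RPKM and 1050 RPKM in WT and 1612 RPKM and 990 RPKM in the deletion. Its mRNA was 2312 RPKM to 2674 RPKM.

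**Figure D5:**
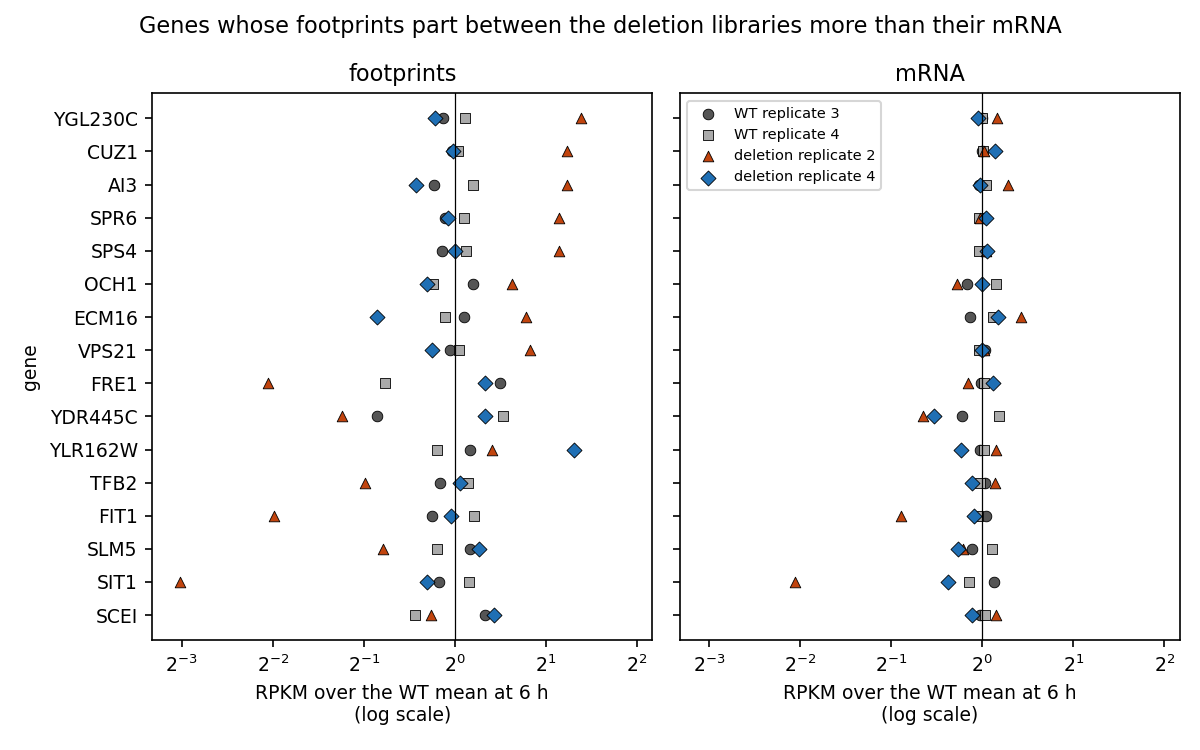
RPKM of each 6 h library over the WT mean (log axis), in footprints on the left and mRNA on the right, for the 8 genes in each direction whose deletion libraries part most in footprints beyond mRNA. For YGL230C, CUZ1, SPR6 and SPS4 deletion replicate 2 is alone on the right in footprints while the mRNA points of all 4 libraries stay near 1.

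In the opposite direction, SIT1, FIT1 and FRE1 were among the 8 genes, and they are described here after their values were seen. SIT1, for a transporter of iron bound to siderophores, had footprints of 170 RPKM and 213 RPKM in WT, 23.5 RPKM in deletion replicate 2 and 155 RPKM in deletion replicate 4. Its mRNA was also lowest in deletion replicate 2, at 53.9 RPKM against 245 RPKM and 203 RPKM in WT and 173 RPKM in deletion replicate 4. FIT1, for a cell wall protein that retains siderophore iron, had 37.7 RPKM and 51.7 RPKM in WT, 11.3 RPKM in deletion replicate 2 and 43.4 RPKM in deletion replicate 4. FIT1 mRNA was lowest there too, at 26.3 RPKM against 50.5 RPKM and 47.3 RPKM in WT and 46.1 RPKM in deletion replicate 4. FRE1, for a reductase that makes iron available for uptake, had 16.6 RPKM and 6.92 RPKM in WT, 2.85 RPKM (33 reads) in deletion replicate 2 and 14.8 RPKM in deletion replicate 4. FRE1 mRNA was between 97.5 RPKM and 118 RPKM. Deletion replicate 2 was the lowest footprint library in each.

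Deletion replicate 2 also held the lowest footprint values of SIT1, FIT1 and FRE1 at 3 h. SIT1 footprints were then 135 RPKM in deletion replicate 2 against 933 RPKM and 1023 RPKM in WT and 1044 RPKM in deletion replicate 4. For FIT1 the values in the same order were 9.25 RPKM against 110 RPKM, 153 RPKM and 128 RPKM. For FRE1 they were 8.32 RPKM against 143 RPKM, 59.3 RPKM and 141 RPKM. Over all genes, deletion replicate 2 minus deletion replicate 4 at 6 h correlated with the same difference at 3 h at 0.223 (Pearson) across 4974 genes, and WT replicate 3 minus WT replicate 4 at 0.0176.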

How the data were processed

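The authors deposited 1 table of RPKM values for 6679 genes, with 1 column for each of 16 libraries, matched to samples by the library codes in the labels, with 0 columns left over. Bowtie2, CASAVA and bcl2fastq 2.17 are named per the submitters' processing notes. For the counter, its strand setting and the genome build nothing is given in the sources used here. Overlapping, antisense and near-identical genes may share reads. Gene names came from the table and RefSeq (5994 IDs matched).

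Each RPKM value gave whole reads (within 0.02 of a read, for 6679 of 6679 genes) after 60 bases were left out of gene length. At 4 to 6 RPKM this is a median of 37 reads per library. The labels name no molecular identifiers, so PCR copies may count as separate reads, and intervals on reads cover counting error only.

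The test was limma (version 3.58.1, R version 4.3.3) on log2(RPKM + 1) (eBayes with a trend, two-sided, Benjamini-Hochberg over all genes tested, threshold 0.05). Fold changes on this scale understate those of low genes. The footprint fit used all 8 footprint libraries, with the 3 h libraries sharing in the estimate of the spread. The mRNA fit used the 4 libraries of 6 h, and the footprint-per-mRNA fit used both kinds in 1 model, for 4860 genes that also had a mean of 5 RPKM in mRNA. The 3 h mRNA libraries were left out with an earlier description of these data in view, as 1 of them, labelled deletion replicate 2, correlated at 0.993 with the 6 h mRNA library of that number and at 0.653 with the other deletion library of its own time.

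The comparison, the 21 gene lists and the rules for named genes were chosen with earlier results of these data known. Named were genes past the threshold, DBP1, DED1 and the neighbours, the 8 genes in each direction with the widest gap and the 5 with deletion libraries furthest on opposite sides (at least 100 reads), and up to 4 members of smallest p per list. Genes whose footprints part from their mRNA were ranked after values were seen, 8 in each direction with at least 400 reads of each kind. Alternatives were another pseudocount, filter, scaling, library set or variance model, limma-voom on the recovered reads, a replicate block and leaving out each library. The steps were tested on simulated data. Python 3.11.15 and matplotlib 3.10.9 made the figures.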

Additional observations from a re-analysis of the deposited data

How the results depend on the processing

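The footprint count of 2 genes held with a pseudocount of 5 RPKM, median-ratio rescaling, the 6 h libraries alone and no trend. It was 4 with no filter (DBP1, SDL1, YCL046W and YLR412C-A), 1 with a minimum of 20 RPKM, 1 with limma-voom, and 1 to 2 when a library was left out. The mRNA count was 1 to 103 when a library was left out, the highest without deletion replicate 4. Footprints per mRNA gave 1 gene with a pseudocount of 5 RPKM and 0 to 2 when a library was left out. With a replicate block over the kinds of library it gave 3 genes, COX17, DBP1 and YPL119C-A. With a replicate block over the times, the difference between 6 h and 3 h gave 0 genes (93 at an unadjusted p under 0.05). Footprint and mRNA libraries carry the same sample numbers in the labels, and their deviations correlated across genes at 0.690 in the deletion and -0.195 in WT. Across times, same-numbered replicates correlated at 0.223 in the deletion and 0.0176 in WT. With the WT libraries exchanged, the Pearson correlation between the deletion libraries was 0.00283, and 24.8% and 36.8% of genes on the same and on opposite sides became 23.5% and 39.8% at a minimum of 20 RPKM. The causes of these changes were not tested.

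Among single genes named, 374 alternative values kept direction and side of the threshold, 6 lost their call, 6 gained one and 15 changed sign when a library was left out, all 15 from small values that never passed. When a library was left out, the log2 difference of the effect between the times was -0.26 to 0.36 for DED1, -0.30 to 0.18 for MRP51 and -0.15 to 0.00796 for VPS30. The log2 change in mRNA was -0.15 to 0.0305 for DED1, -0.15 to 0.13 for VPS30, -0.0374 to 0.0887 for PRP40, -0.22 to 0.86 for USB1, -0.14 to 0.0502 for HOS1, -0.0492 to 0.10 for YHR078W and -0.29 to 0.15 for YHR050W-A, and that in footprints per mRNA was -0.18 to 0.0164 for MRP51.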
